A study of Mus musculus with 9 samples.

Results

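The regions described here are N-MYC binding sites on H3K4me3-marked chromatin that carried no peak of the Polycomb methyltransferase EZH2 in MYCN-driven T-cell lymphoma cells. They were selected from peak lists, by measured values: an N-MYC peak on the autosomes, X or Y had to overlap a peak of H3K4me3 by at least 1 bp, and to overlap no peak of EZH2, Suz12 or H3K27me3. Of 9798 N-MYC peaks, 8276 (84.5%) lay on an H3K4me3 peak, and 308 of these also met Suz12 or H3K27me3. Of the remaining 7968 peaks, 2431 met no EZH2 peak and are the members (30.5%, 95% Wilson interval 29.5 to 31.5). The other 5537 peaks met EZH2 and serve below as the comparison, called N-MYC promoter peaks with EZH2. The 2431 members lay on 2294 separate H3K4me3 peaks, so that some of them share a promoter.

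The study profiled lymphoma cells from the thymus of C57BL/6J mice with ChIPmentation, a form of chromatin immunoprecipitation that uses a transposase to add adapters to bead-bound chromatin. There were 7 antibodies (EZH2, Suz12, H3K27me3, H3K4me3, H3K27ac, p300 and N-MYC) with 1 library each, and 2 input libraries that were not analysed here. All cells shared the MYCN-driven lymphoma background, and the labels give no age, no sex, no untreated or normal group, and neither the promoter that drives MYCN nor the animal behind each antibody. Without a second library per antibody no difference has a replicate check and no test was run, so that intervals cover counting of peaks only; the read depth is unknown. The lists held from 9798 peaks (N-MYC) to 123056 peaks (H3K27me3), and absence of a peak says only that none passed the authors' threshold. The cell type label was checked on H3K4me3: 10 of 10 T-cell marker genes had a peak within 1 kb of a start (fold enrichment 24.3 to 41.8), as did 1 of 3 B-cell genes (Cd79a, 4.74), 1 of 4 myeloid genes (Cebpa, 6.81) and 1 of 5 genes of stroma and epithelium (Epcam, 19.3).

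N-MYC is a basic helix-loop-helix transcription factor that pairs with MAX and binds E-boxes, with CACGTG as the preferred form, mostly in promoters that are already open. EZH2 is the catalytic subunit of Polycomb repressive complex 2, in which SUZ12 is a core partner, and it writes H3K27me3, a mark of silenced genes. H3K4me3 marks active or poised promoters, and its width tends to grow with promoter activity. p300 is an acetyltransferase that writes H3K27ac, found at active promoters and enhancers. The title of the study concerns EZH2 acting as an activator where MYCN is expressed, and the members are the N-MYC-bound promoters on which no EZH2 peak was called.

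The promoters below show the sequence beside the values that follow. They are the 250 bases before the start of transcription, from RefSeq (build GRCm38.p6), printed 5′ to 3′ along the strand of the gene. Capitals mark the E-box CACGTG and its variant CACGCG, which reads as CGCGTG from the opposite strand. These 3 belong to the members of highest N-MYC fold enrichment among those with a protein-coding start within 1 kb, and hold no E-box in these bases: Pole4 (chr6:82652866-82653115, minus strand), Ube2cbp (chr9:86464917-86465166, minus strand) and Tmem268 (chr4:63558513-63558762, plus strand).
Pole4: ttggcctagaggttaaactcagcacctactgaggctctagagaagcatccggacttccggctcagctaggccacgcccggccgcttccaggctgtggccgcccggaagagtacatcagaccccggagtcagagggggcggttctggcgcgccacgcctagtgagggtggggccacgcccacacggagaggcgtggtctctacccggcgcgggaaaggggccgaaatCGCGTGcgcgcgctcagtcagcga
Ube2cbp: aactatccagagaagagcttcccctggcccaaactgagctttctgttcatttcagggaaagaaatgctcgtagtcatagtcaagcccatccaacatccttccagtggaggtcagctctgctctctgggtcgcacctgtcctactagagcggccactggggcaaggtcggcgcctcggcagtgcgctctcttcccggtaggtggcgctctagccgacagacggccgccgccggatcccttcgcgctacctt
Tmem268: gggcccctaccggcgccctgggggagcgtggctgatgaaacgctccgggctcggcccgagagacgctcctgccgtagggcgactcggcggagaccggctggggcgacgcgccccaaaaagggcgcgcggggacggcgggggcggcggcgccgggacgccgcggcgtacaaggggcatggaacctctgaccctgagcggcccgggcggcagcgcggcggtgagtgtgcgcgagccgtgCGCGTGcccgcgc

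The other 4 belong to strongly bound members that hold an E-box before the start, and were chosen after their values were seen: Ciart (chr3:95882229-95882478, minus strand), Morf4l2 (chrX:136741610-136741859, minus strand), Trmt10a (chr3:138143549-138143798, plus strand) and Atic (chr1:71556906-71557155, plus strand). Ciart has 3 E-boxes, at 44, 58 and 116 bases before the start, and a variant at 159 bases. The E-box lies 9 bases before the start in Morf4l2, 15 bases before it in Trmt10a and 7 bases before it in Atic. Not all lay so near: of the strongly bound members not printed, Frmd6 (N-MYC fold 13.8, above the 13.4 of Atic) had its E-box 216 bases before the start and Golim4 (12.5) 187 bases before it. In Pole4 the variant lies 24 bases before the start, and in Tmem268 it lies 13 bases before it. The printed bases are set by the start and need not hold the N-MYC summit. The summit lay 69 bases after the start in Pole4 and 162 bases after it in Ube2cbp. It lay 389 bases before the start in Ciart and was 396 bases from it in Morf4l2. In each of these genes the summit is outside the printed bases.
Ciart: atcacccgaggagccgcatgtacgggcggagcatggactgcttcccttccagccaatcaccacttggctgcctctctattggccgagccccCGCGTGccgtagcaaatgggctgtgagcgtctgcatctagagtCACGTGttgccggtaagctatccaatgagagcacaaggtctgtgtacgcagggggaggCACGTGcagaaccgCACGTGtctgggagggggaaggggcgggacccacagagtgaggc
Morf4l2: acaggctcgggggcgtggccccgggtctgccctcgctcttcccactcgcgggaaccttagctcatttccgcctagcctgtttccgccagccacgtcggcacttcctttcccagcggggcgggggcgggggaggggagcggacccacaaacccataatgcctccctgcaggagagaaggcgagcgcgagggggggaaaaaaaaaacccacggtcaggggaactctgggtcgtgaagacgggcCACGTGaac
Trmt10a: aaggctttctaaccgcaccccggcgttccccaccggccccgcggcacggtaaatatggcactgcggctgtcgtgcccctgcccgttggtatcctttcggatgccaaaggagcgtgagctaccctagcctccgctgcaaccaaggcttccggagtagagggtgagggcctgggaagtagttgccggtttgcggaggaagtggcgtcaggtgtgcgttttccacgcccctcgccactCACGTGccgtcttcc
Atic: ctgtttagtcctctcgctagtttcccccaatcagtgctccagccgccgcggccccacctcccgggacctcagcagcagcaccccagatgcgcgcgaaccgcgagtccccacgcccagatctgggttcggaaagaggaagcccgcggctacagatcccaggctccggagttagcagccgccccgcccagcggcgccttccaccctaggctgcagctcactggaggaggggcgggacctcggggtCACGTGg

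Among members with a protein-coding start within 1 kb, those of highest N-MYC fold enrichment included genes of DNA replication, nucleotide synthesis, RNA processing and the circadian clock. The fold enrichment of a peak is the authors' own ratio over background at that peak, here used to rank peaks within 1 list. Pole4, an accessory subunit of DNA polymerase epsilon, led these members with an N-MYC fold of 20.7 (peak at chr6:82652255-82653241, mm10). The H3K4me3 peak beneath it was 1398 bp wide with a fold of 13.4, and it overlapped p300 (fold 6.64) and H3K27ac (fold 20.1). Its nearest EZH2 peak was 379715 bp away.

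Among members with a start, Ube2cbp came next, which encodes a ubiquitin ligase, at an N-MYC fold of 18.4, the transmembrane protein gene Tmem268 at 17.7 and Anapc5, a subunit of the anaphase-promoting complex, at 17.2. The clock output factor Dbp followed at 16.3, the cytochrome P450 gene Cyp20a1 at 15.8 and the circadian repressor Ciart at 15.7. Impdh1, an enzyme of guanine nucleotide synthesis, stood at 15.3, the interleukin-1 receptor accessory protein gene Il1rap at 15.2, and Rpp38, a subunit of ribonuclease P, at 15.0. Members without such a start are not in this order, and 4 of them had N-MYC folds of 17.7, 15.8, 15.3 and 15.03, above that of Rpp38. All 10 of the named members overlapped p300 and all 10 overlapped H3K27ac, against 83.4% and 97.9% of all members. Among members in the strongest of 5 equal groups of N-MYC promoter peaks by N-MYC fold, p300 met 95.2%, against 99.6% of peaks with EZH2 in that group. The p300 fold ran from 3.53 at Il1rap to 14.0 at Rpp38. Of the 10, 7 lay on an H3K4me3 peak no wider than the median of all members. Only Dbp had an EZH2 peak elsewhere on its H3K4me3 peak, which was 3735 bp wide, and the EZH2 peak was 692 bp away. Ciart lay on weak H3K4me3, with a width of 1060 bp and a fold of 5.59.

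Members sat on narrower and weaker H3K4me3 than N-MYC promoter peaks with EZH2. The H3K4me3 peak under a member had a median width of 1889 bp (quartiles 1313 to 2729), against 2988 bp (2403 to 3711) for peaks with EZH2. The median H3K4me3 fold was 18.3 (11.5 to 25.1) against 31.8 (26.2 to 37.3), so that the interquartile ranges did not overlap. N-MYC itself differed less, at a median fold of 4.96 (4.18 to 6.36) against 6.01 (4.67 to 8.09), and the N-MYC peak was 416 bp wide against 613 bp. Counting each H3K4me3 peak once, the width was 1733 bp over 2055 peaks under members alone, 2898 bp over 4804 peaks under peaks with EZH2 alone, and 3921 bp over the 239 peaks that held both. All 16899 H3K4me3 peaks had a median width of 1655 bp. The part of H3K4me3 width in the EZH2 calls was not tested.

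**Figure D1:**
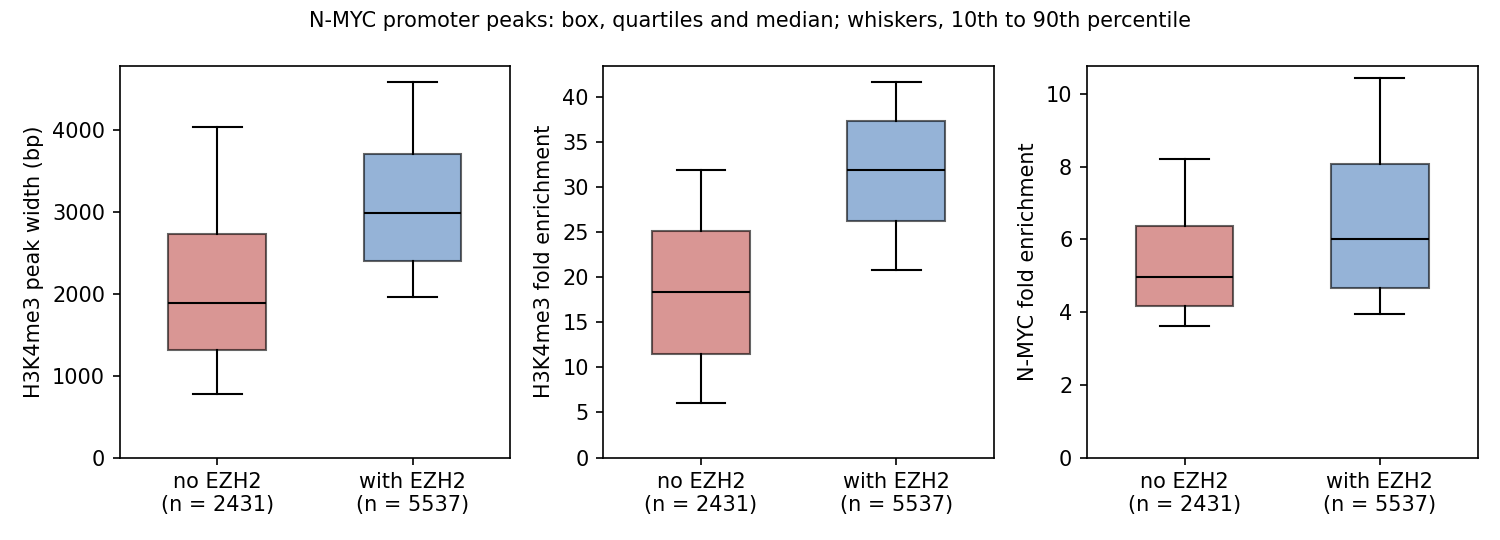
H3K4me3 peak width in bp, H3K4me3 fold enrichment and N-MYC fold enrichment of the 2431 members (no EZH2) and the 5537 N-MYC promoter peaks with EZH2. Boxes give quartiles and median, whiskers the 10th and 90th percentile; the median width was 1889 bp against 2988 bp, and the N-MYC boxes overlap while the H3K4me3 fold boxes do not.

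The share of N-MYC promoter peaks without EZH2 fell with H3K4me3 width up to 4000 bp. It was 93.8% (88.2 to 96.8) on H3K4me3 peaks under 500 bp, 87.8% from 500 to 1000 bp and 63.0% from 1000 to 2000 bp. It then dropped to 22.4% from 2000 to 3000 bp and 12.3% (10.9 to 13.8) from 3000 to 4000 bp. Above 4000 bp it was higher again, at 19.2% (17.1 to 21.5). Over all members the H3K4me3 width ran from 200 to 12310 bp. Among members with a start, those on the widest H3K4me3 were at Slc25a11, a mitochondrial carrier gene (11598 bp), Ikzf1, the lymphoid factor Ikaros (9875 bp), and Ldb1, a cofactor of LIM-domain proteins (9708 bp). All of these 3 had EZH2 elsewhere on the same H3K4me3 peak. The narrowest among members with a start were at Fhit (213 bp), Derl3 (223 bp) and Foxred2 (259 bp), which had N-MYC folds of 9.07, 5.95 and 8.63, and none of these had EZH2 on its H3K4me3 peak.

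The members fell into 2 kinds by what lay on the rest of the H3K4me3 peak. For 1787 (73.5%) the whole H3K4me3 peak was free of EZH2. For the other 644 (26.5%, 24.8 to 28.3) an EZH2 peak lay elsewhere on it, at a median gap of 179 bp from the N-MYC peak, against 29926 bp for the first kind. The first kind had narrow H3K4me3, with a median width of 1605 bp and a fold of 15.2, and an N-MYC fold of 5.14. The second kind had a median H3K4me3 width of 3182 bp and a fold of 28.5, near those of peaks with EZH2, and an N-MYC fold of 4.69. Its N-MYC summit was 644 bp from the H3K4me3 summit at the median, against 259 bp for the first kind and 341 bp for peaks with EZH2. The split itself used the EZH2 and H3K4me3 lists, and a wider H3K4me3 peak has more room for an EZH2 peak. The gaps, and in part the widths and summit distances, therefore follow from the split and are descriptions only.

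The position relative to the gene also differed between the 2 kinds. Among members with a protein-coding start within 1 kb, the N-MYC summit lay upstream of the start in 46.5% (43.4 to 49.8) of the first kind and in 67.9% (63.1 to 72.3) of the second. In peaks with EZH2 it lay upstream in 43.2% (41.7 to 44.7). Each N-MYC peak of the second kind was chosen to lie beside an EZH2 peak on the same H3K4me3 peak. The side of the start is therefore not independent of the split, and these shares are descriptions only.

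Some members lay close to the edge of the rule. In all, 225 members (9.26%) were within 100 bp of an EZH2 peak and 473 (19.5%) within 500 bp, while the median gap was 16780 bp. Just inside, 3 members directly abutted an EZH2 peak. These included the members at Slc12a7, a potassium-chloride cotransporter gene, and Ndufs6, a subunit of respiratory complex I. The member at Ammecr1 on the X chromosome was 1 bp away. Just outside, the peaks at Gtf2a1, Birc5 and Esyt2 met an EZH2 peak by 1 bp and had N-MYC folds of 15.2, 8.37 and 6.64, against 6.38 at Slc12a7, 3.37 at Ndufs6 and 8.04 at Ammecr1. A further 24 members had Suz12, and 76 had H3K27me3, elsewhere on their H3K4me3 peak.

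Nearly all members carried H3K27ac, and most carried p300. H3K27ac overlapped 2379 of 2431 members (97.9%, 97.2 to 98.4), against 99.9% of peaks with EZH2 and 99.3% of all 7968 peaks. p300 overlapped 2028 members (83.4%, 81.9 to 84.8), against 95.5% (94.9 to 96.0) of peaks with EZH2 and 91.8% of all 7968 peaks. The difference in p300 was -12.1 percentage points (95% Newcombe interval -13.7 to -10.5), and that in H3K27ac was -2.03 points (-2.69 to -1.51). Where called, the p300 peak had a median fold of 5.02 against 5.71, and the H3K27ac peak 12.1 against 15.9. H3K27ac without p300 was found at 381 members (15.7%), against 4.48% of peaks with EZH2.

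The difference in p300 was largest, by its point value, where H3K4me3 was weakest; whether it changed between levels of H3K4me3 was not tested. When the 7968 peaks were ranked by H3K4me3 fold and divided into 5 equal groups, 1248 members fell in the weakest group (fold 2.14 to 18.7) and 107 in the strongest (36.9 to 56.1). In the weakest group p300 met 77.8% of members and 88.2% of peaks with EZH2, a difference of -10.3 points (-14.2 to -5.92). In the middle group it met 89.8% and 94.8%, a difference of -4.97 points (-9.11 to -1.72). In the strongest group it met 96.3% and 98.6%, and the interval of the difference included 0 (-7.83 to 0.0655), as it did in the fourth group (-6.23 to 0.907). H3K27ac met 96.5% of members in the weakest group and at least 98.6% in each of the other 4. H3K4me3 fold thus moved together with both EZH2 and p300, and its part in the difference was not tested beyond these groups.

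**Figure D2:**
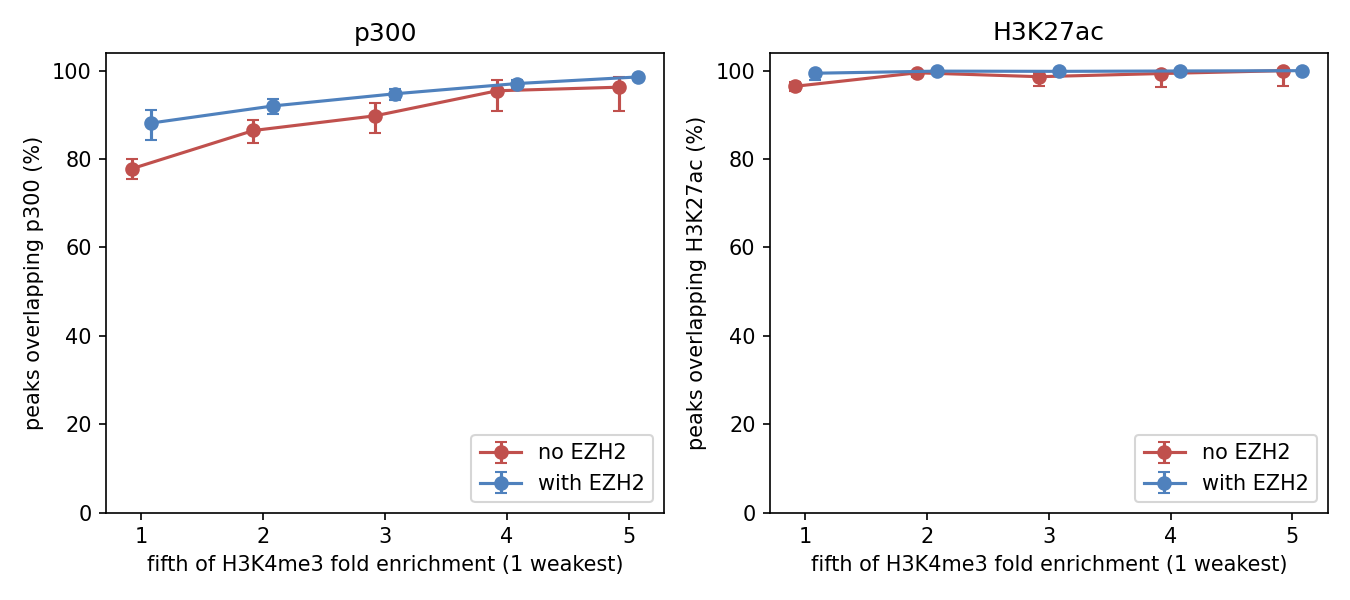
Share of N-MYC promoter peaks that overlap p300 (left) and H3K27ac (right), in percent, in 5 equal groups of increasing H3K4me3 fold enrichment, for members (no EZH2) and peaks with EZH2; bars are 95% Wilson intervals. p300 rises from 77.8% to 96.3% of members while H3K27ac stays at 96.5% or above.

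Among members with a start, those of highest p300 fold were at Rfx1, a winged-helix transcription factor gene (20.8), Mycbp, which encodes a MYC-binding protein (14.5), and Mus81, a DNA repair endonuclease gene (14.5). All of these 3 had EZH2 elsewhere on the H3K4me3 peak, and that at Mycbp was 2 bp from the N-MYC peak. Neither p300 nor H3K27ac was called at 22 members (0.905%), against 1 peak with EZH2. Of those with a start, the highest N-MYC folds were at the epithelial transcription factor gene Grhl1 (6.69), the potassium channel gene Kcnh4 (5.29) and the neuronal microtubule protein gene Map2 (5.28). Grhl1 had an EZH2 peak 29 bp away on the same H3K4me3 peak.

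The summits were close together. The N-MYC summit of a member was 140.5 bp from the p300 summit at the median, against 168 bp in peaks with EZH2, and 320 bp from the H3K4me3 summit, against 341 bp. The N-MYC peak reached past the edge of the H3K4me3 peak in 20.03% of members (18.5 to 21.7) and in 2.84% of peaks with EZH2 (2.43 to 3.31).

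The word promoter holds for only part of the members. A protein-coding start lay within 1 kb of the N-MYC summit in 1318 members (54.2%, 52.2 to 56.2), against 76.2% of peaks with EZH2, a difference of -22.0 points (-24.3 to -19.7). The table of starts is incomplete. Counting either end of any protein-coding gene, 59.6% of members and 81.04% of peaks with EZH2 were within 1 kb. The other 982 members lay on H3K4me3 away from gene ends, 603 of them inside gene bodies and 379 between genes; exons and introns were not analysed here. These had narrower H3K4me3 (median 1596 bp, fold 13.3), and 82.0% met p300 and 98.9% met H3K27ac. The members with a start were close to it, with a median of 117 bp between summit and start, against 121 bp in peaks with EZH2.

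The largest difference between chromosomes was on X. Of the 141 N-MYC promoter peaks on X, 102 had no EZH2 (72.3%, 64.4 to 79.1), against 29.8% (28.8 to 30.8) on the autosomes, a difference of 42.6 points (34.6 to 49.4). Among the autosomes the share ran from 22.4% on chromosome 14 to 37.4% on chromosome 7. The difference was present at each level of H3K4me3: from the weakest to the strongest of the 5 groups, X had 34 of 34, 35 of 43, 22 of 40, 9 of 20 and 2 of 4 peaks without EZH2. The autosomes had 77.8%, 38.3%, 17.5%, 9.22% and 6.60%. N-MYC peaks were not called on Y.

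**Figure D3:**
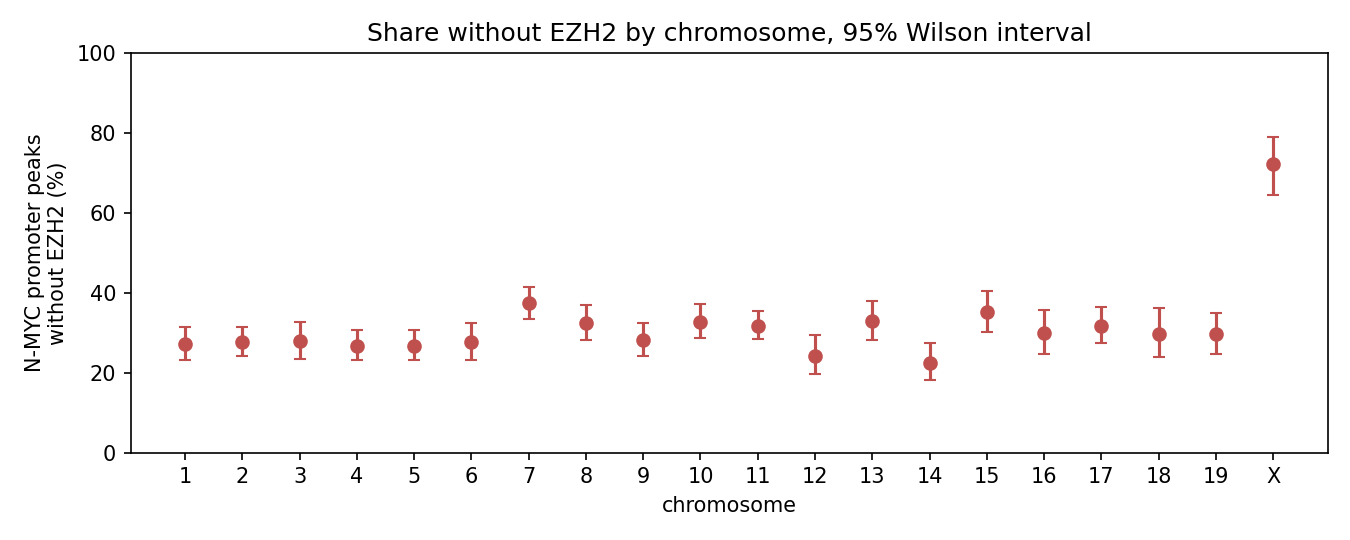
Share of N-MYC promoter peaks without EZH2 on each chromosome, in percent, with 95% Wilson intervals. The autosomes lie between 22.4% and 37.4%, and X at 72.3%.

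X-linked members had fewer p300 peaks than autosomal members, at 51.0% (41.4 to 60.5) against 84.8% (83.3 to 86.2). H3K27ac was called on 99.0% against 97.8%, and the N-MYC fold was 4.98 against 4.96. Their H3K4me3 fold was 23.3 against 18.2. The pattern was not limited to N-MYC sites: over all H3K4me3 peaks without Suz12 or H3K27me3, EZH2 met 19.03% of 431 peaks on X and 45.2% of 14386 on autosomes. There p300 met 29.9% against 60.0% and N-MYC 29.2% against 47.0%. H3K27ac met 85.6% against 85.2%, and the H3K4me3 fold was 18.5 against 18.03. The number of X copies in the cells is not in the labels, and its part in these shares was not tested. The X-linked members with a start of highest N-MYC fold were at Morf4l2, a chromatin factor gene (14.9), Tsr2, a ribosome biogenesis gene (10.3), and Naa10, the catalytic subunit of an N-terminal acetyltransferase (8.96).

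Counted by gene, 1250 of 5652 protein-coding genes with an N-MYC promoter peak had no EZH2 on any such peak (22.1%), and 936 of these had none on the whole H3K4me3 peak. This share is the background for the gene lists, which were chosen with earlier results of these data known. Lists of ribosomal, nucleolar, translation initiation and splicing genes lay below it, with intervals that did not reach it. The lists were not matched to all genes by H3K4me3 strength. Counted by peak, the share without EZH2 was 78.3% in the weakest of the 5 groups by H3K4me3 fold and 6.71% in the strongest. The part of promoter strength in the list shares was not tested. Cytosolic ribosomal protein genes, the structural parts of the ribosome, had N-MYC on 57 genes, of which 2 lacked EZH2 (3.51%, 0.968 to 11.9). These were Rpl39 (N-MYC fold 7.78) and Rpl36a (4.36), both on X. Of 55 nucleolar ribosome biogenesis genes with N-MYC, the 1 without EZH2 was Dkc1 (6.17), the X-linked pseudouridine synthase of box H/ACA particles. None of the autosomal genes in either list lacked EZH2. With an overlap of at least 50% required, the ribosomal share was 24.6% (15.2 to 37.1) against 36.9% of all genes, and with lists of equal length the nucleolar share was 25.5% (15.8 to 38.3) against 38.2%. In each of these settings the interval included the share of all genes.

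Translation initiation factors had 2 of 34 without EZH2: Eif2ak4 (6.38), a kinase that acts on the factor eIF2, and the X-linked Eif1ax (5.14). Eif1ax had EZH2 elsewhere on its H3K4me3 peak. Splicing factors had 2 of 51, Prpf40b (6.91) and Snrpd2 (4.10), both with EZH2 elsewhere on the H3K4me3 peak. With the overlap of 50% the splicing share was 21.6% (12.5 to 34.6), against 36.9% of all genes, which the interval did not reach. Mitochondrial ribosomal proteins had 6 of 53, led by Mrpl45 (9.69), Mrps9 (7.37) and Mrpl44 (6.35). Of these 6, 4 had no EZH2 on the whole H3K4me3 peak, while Mrps9 had EZH2 elsewhere on it. The list of aminoacyl tRNA synthetases, which charge tRNAs, and of partner proteins such as Aimp2 had 4 of 26. It was led by Iars (10.3), Wars2 (8.56) and Aimp2 (6.80). The peak at Aimp2 was also the peak of the mismatch repair gene Pms2.

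Of the 20 lists, T-cell identity had the highest share (41.7%, 19.3 to 68.05), followed by genes that modify or process tRNA, with 12 of 34 lacking EZH2 (35.3%, 21.5 to 52.1). None of these 12 tRNA genes had EZH2 anywhere on its H3K4me3 peak. They included Rpp38 and Rpp40 of ribonuclease P (N-MYC folds 15.0 and 8.73), Trmt10a, a tRNA guanine methyltransferase (14.6), and Trmu, which thiolates mitochondrial tRNA (7.48). At Trmt10a, whose promoter is printed above, the H3K4me3 peak was 2552 bp wide with a fold of 17.5, p300 had a fold of 7.75 and H3K27ac a fold of 28.7. The interval of the tRNA list included the share of all genes, as did that of the T-cell list, so that neither is shown to differ from it.

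The zinc finger Zfp family, mostly DNA-binding repressors, had 40 of 133 without EZH2 (30.1%, 22.9 to 38.3), led by Zscan18 (12.7), Zfp46 (11.1) and Zfp296 (9.96). Of these 40, 30 had no EZH2 on the whole H3K4me3 peak. T-cell identity genes had 5 of 12: the kinase gene Lck (5.42), the surface receptor gene Cd5 (5.09), the adaptor gene Lat (4.31), Notch1 (4.01) and the T-cell receptor zeta chain gene Cd247 (3.21). All 5 had EZH2 elsewhere on an H3K4me3 peak of 3238 to 3815 bp, and none is left when the whole H3K4me3 peak has to be free of EZH2.

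The intervals of the growth and cell cycle lists included the share of all genes. Of 37 genes listed for nucleotide and one-carbon synthesis, 33 had a start in the table. All 33 had an N-MYC promoter peak, against 32.3% of all protein-coding genes with a start. In the other lists this share ran from 37.7% (zinc finger Zfp family) to 91.7% (nucleolar ribosome biogenesis). Of the 33 genes, 7 lacked EZH2. These were led by Impdh1 (15.3), Atic, a purine synthesis enzyme gene (13.4), and Nme2, a nucleoside diphosphate kinase gene (11.4). At Atic, also printed above, H3K4me3 was strong (fold 34.4) and 1932 bp wide. DNA replication had 6 of 24, led by Pole4 (20.7), the polymerase delta subunit gene Pold2 (7.96) and the helicase subunit gene Mcm2 (6.50). DNA repair had 7 of 33, led by Rad51c (8.82), Ogg1 (8.35) and Ung (7.53), of which the latter 2 encode DNA glycosylases. The list of cyclins, CDKs and E2F had 3 of 25, namely Ccnb1 (6.69), Tfdp2 (4.88) and the CDK inhibitor gene Cdkn2d (4.47). Ccnb1 and Cdkn2d had EZH2 elsewhere on the H3K4me3 peak. Genes without EZH2 on the whole H3K4me3 peak numbered 5 for nucleotide synthesis, 3 for DNA replication, 6 for DNA repair and 1 for the cyclin list.

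Nuclear oxidative phosphorylation genes had 9 of 41, led by Sdhb (5.75), Ndufa11 (5.72) and Cox7b (5.36). Cox7b is X-linked and had no p300 peak. Of these 9 genes, 4 had no EZH2 on the whole H3K4me3 peak, while Sdhb and Ndufa11 had EZH2 elsewhere on it. Mitochondrial import and chaperones had 4 of 25, led by Tomm40 (6.21), Timm22 (4.67) and Timm13 (4.13), all with EZH2 elsewhere on the H3K4me3 peak. Proteasome subunits had 4 of 29, led by the assembly factor genes Psmg4 (13.8) and Psmg1 (5.60) and by Psmb10 (4.88). RNA polymerase II and general factors had 9 of 49, led by Polr2h (8.88), Polr2a (7.52) and Med31 (7.005). Vesicle sorting and autophagy had 12 of 60, led by Snx8 (12.03), Atg10 (6.07) and Trappc2l (6.03). Genes without EZH2 on the whole H3K4me3 peak numbered 2 for proteasome subunits, 7 for RNA polymerase II and general factors and 8 for vesicle sorting. The MYC, MAX and MXD network had 1 of 8, the MAX partner gene Mga (11.4), and polyamine metabolism 1 of 7, the X-linked acetyltransferase gene Sat1 (6.92).

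**Figure D4:**
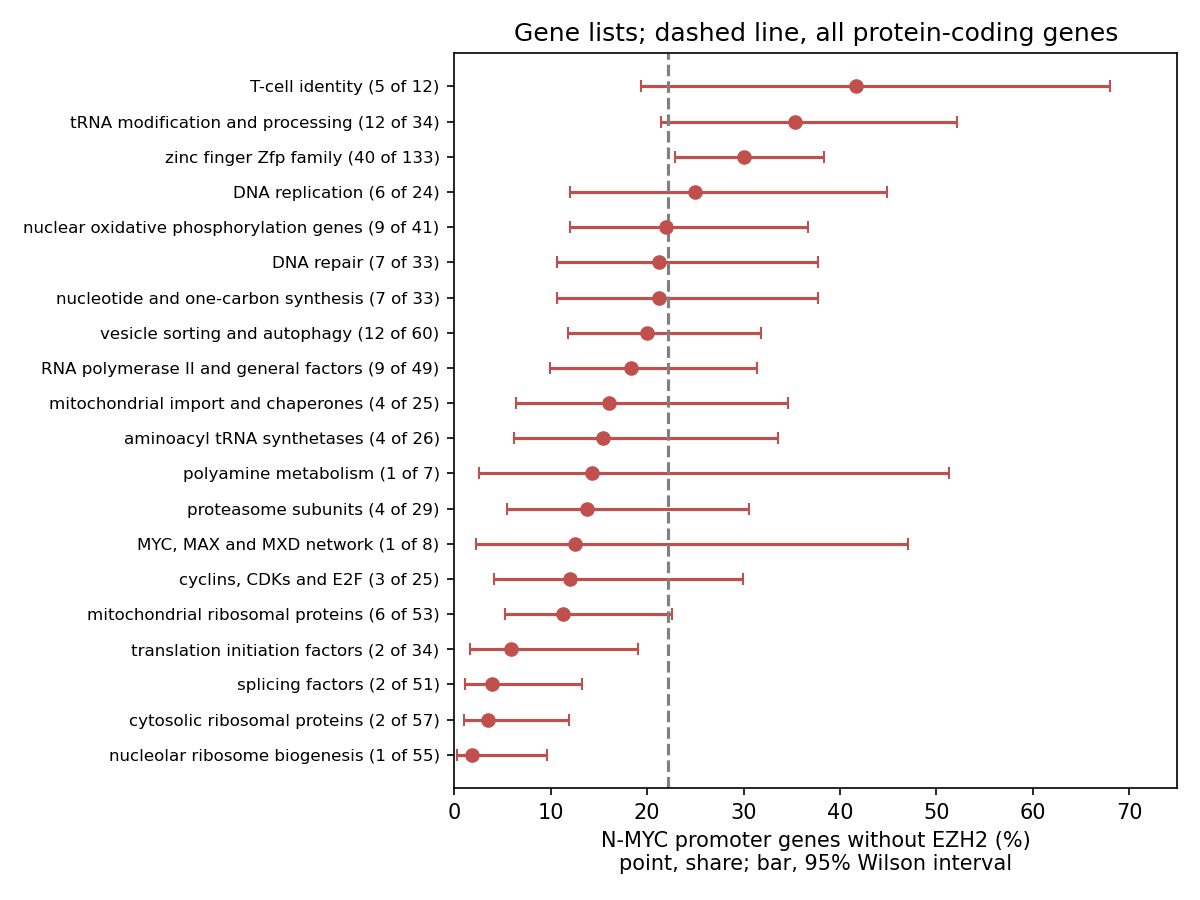
Share of genes without EZH2 among the genes of each list that have an N-MYC promoter peak, in percent, with 95% Wilson intervals and the counts beside each name; the dashed line is the share of all protein-coding genes, 22.1%. The nucleolar and ribosomal lists lie lowest, and the intervals of most other lists cross the line.

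Member promoters held the canonical E-box more often than promoters with EZH2. RefSeq windows from 250 bases before to 50 bases after a start were searched on both strands for 11 motifs, in 1169 member genes and 3832 genes whose peak had EZH2; 97 genes with both were left out. CACGTG was in 15.5% of member windows (13.5 to 17.7) and in 12.7% of the others (11.7 to 13.8), a difference of 2.80 points (0.557 to 5.21). It was in 7.84% of all 21263 protein-coding windows and in 10.9% of those on H3K4me3. The interval included 0 with a stricter q (1.01 points, -1.12 to 3.26), a stricter fold (1.51, -0.652 to 3.79) and lists of equal length (1.10, -0.826 to 3.08). Among the promoters printed above, Pole4 and Tmem268 held no CACGTG in the window of 300 bases. Ube2cbp held it in this window, though not in the 250 bases before the start. Of the 10 named members of highest N-MYC fold, 3 held it in the window.

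The E-box share was higher in strongly bound windows of both kinds of gene, with intervals that overlapped for member genes and did not for genes with EZH2. Below an N-MYC fold of 4, 14.0% (9.56 to 19.9) of 172 member windows held it, and from a fold of 10 upward 26.6% (17.3 to 38.5) of 64. For genes with EZH2 the values were 9.70% (6.95 to 13.4) and 21.2% (17.8 to 25.03).

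The other motifs differed by a few points in either direction. CCAAT (searched as ATTGG) was in 43.2% of member windows against 36.2%, a difference of 7.004 points (3.80 to 10.2), and in 38.2% of all windows. The variant E-box CATGTG was in 9.84% against 6.50%, below the 11.5% of all windows. The variant CACGCG was lower in members, at 22.0% against 25.5%, as were the GC box GGGCGG (70.3% against 74.5%), the ETS motif CCGGAAG (19.4% against 23.1%), the YY1 motif AAGATGGC (4.02% against 6.34%) and TCTCGCGA (2.05% against 3.39%). The intervals of the differences included 0 for NRF1 (GCGCATGC), CRE (TGACGTCA) and TATAAA. Base composition also differed, and its part in the motif shares was not tested: member windows had a median G+C content of 61.0% against 64.3%, 21 CpG sites against 26, and an observed-to-expected CpG ratio of 0.766 against 0.868. A match is a run of letters and does not show binding.

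**Figure D5:**
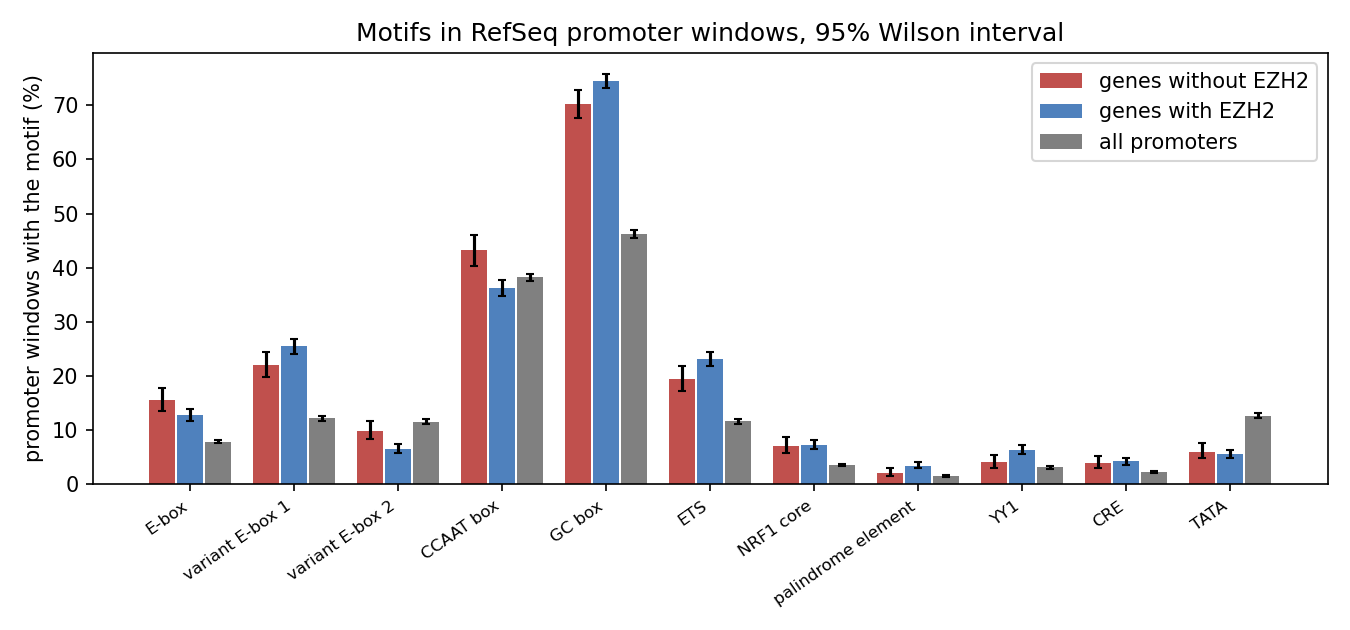
Share of promoter windows of 300 bases that hold each motif, in percent, for member genes (no EZH2), genes with EZH2 and all protein-coding windows, with 95% Wilson intervals. E-box and CCAAT bars are higher in members than in genes with EZH2, and the GC box bar is lower.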

How the data were processed

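ChIPmentation libraries of 7 antibodies, 1 per antibody, were available as narrow peak lists, per the files' layout. The submitters' processing notes name Bowtie2, SAMtools, MACS2, FastQC and deepTools and the builds mm10 and GRCm38, without versions or settings. The fold enrichment in the deposited lists is a linear ratio set by the authors' peak caller. The p-value and q-value are deposited as −log10 values, the smallest −log10 q being 2.00 to 2.08 by list. A deposited whole-number score follows from the −log10 q and entered no result. Whether the inputs served as controls, and whether libraries were pooled, is not given in the sources used here.

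Peaks on 19 autosomes, X and Y were compared by overlap of at least 1 bp with Python 3.11.15, numpy 2.4.6 and pandas 2.3.3, and checked on simulated data. Shares have 95% Wilson intervals and differences Newcombe intervals. Members were assigned the nearest protein-coding start within 1 kb of the N-MYC summit, also for the promoter windows. Counts by gene and the gene lists took every gene with a start within 1 kb of a summit. Starts came from RefSeq GRCm38.p6, whose promoter table covers 17492 of 21887 protein-coding genes and none of the 63 members on chromosome 18. Each gene list names its up to 3 members of highest N-MYC fold; the 10 highest of all members with such a start and, among these, the extremes of H3K4me3 width and p300 fold, members with neither p300 nor H3K27ac, and peaks nearest the edge of the rule were also named. In short lists further genes, and the X-linked genes and the E-box promoters shown, were chosen after their values were seen. The members and the 20 lists were chosen with earlier results of these data known. Alternatives left out chromosome X, used either gene end, other promoter windows, or recomputed the p300 and E-box differences and the chromosome X share; these were chosen after seeing the data.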

Additional observations from a re-analysis of the deposited data

How the results depend on the processing

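Of 83 alternative values of 11 results, 38 stayed within their interval or spread and 7 were member counts within 1.5 times the reported count. The other 38 moved and 0 reversed. A reversal could be recorded only for the p300 and E-box differences, so that the 0 says nothing about the other results. The cause of the moves was not tested. The number of members ran from 1753 to 3478, and the shares of the ribosomal, nucleolar and splicing lists were below that of all genes in all 7 alternatives. p300 met 78.7% of members with a −log10 q of at least 5, and 71.9% with a fold of at least 4. It met 74.0% with lists of equal length, and 80.7% with a whole H3K4me3 peak free of EZH2, Suz12 and H3K27me3. H3K27ac met 94.7% with an overlap of 50% and 74.6% with lists of equal length. With the q, the fold, the 50% overlap, the equal length and the whole H3K4me3 peak in turn, the H3K4me3 width was 2027, 2061, 2298, 2317 and 1608 bp, the N-MYC fold 5.36, 5.49, 5.19, 5.23 and 5.14, and 5.07 with merged peaks. In the same order the share with a gene start was 59.5%, 60.4%, 63.7%, 68.4% and 51.7%, the p300 difference -14.1, -15.9, -10.0, -14.8 and -14.8 points, and the share of genes without EZH2 over all lists together (17.4% as reported) 22.4%, 23.1%, 31.6%, 36.0% and 12.4%. The share over all protein-coding genes (22.1% as reported) moved with it, to 27.8%, 28.1%, 36.9%, 38.2% and 17.2%. The start share was 50.3% within 500 bases, 57.9% within 2000 bases and 59.6% with either gene end. The E-box share was 12.9% in the 250 bases before the start. On X the share without EZH2 was 81.7% with the 50% overlap and 86.6% with lists of equal length. No paired analysis was possible because each antibody had 1 library. Peak lists have no known depth, so a weak EZH2 peak below the threshold cannot be told from its absence.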

Other observations

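The share without EZH2 was lower where N-MYC was stronger. From the weakest to the strongest of 5 equal groups of N-MYC fold, 43.1%, 39.0%, 31.1%, 23.7% and 15.7% of the 7968 N-MYC promoter peaks had no EZH2. The members' p300 share was 77.6% in the weakest of these groups and 95.2% in the strongest, against 89.2% and 99.6% of peaks with EZH2. Their median H3K4me3 width in the same groups was 1924 bp and 1810 bp, against 2953 bp and 3162 bp. A bidirectional promoter, with starts on both strands within 1 kb of the summit, was found at 9.03% of members with a start and at 12.1% of peaks with EZH2, a difference of -3.04 points (-4.79 to -1.12).

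Some of the strongest members had no protein-coding start within 1 kb. The strongest of these lay inside a gene body at chr7:99468108-99469217 (mm10) with an N-MYC fold of 17.7, on an H3K4me3 peak of 1494 bp and a fold of 10.2, with p300 at 6.84 and H3K27ac at 17.6. Another at chr9:20877861-20878761 had an N-MYC fold of 15.8 on an H3K4me3 peak of 258 bp, with H3K27ac at a fold of 20.6.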
